A study of Mus musculus with 6 samples.

Results

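Arc and 9 other genes that neurons switch on when they fire were followed through the brains of old wild-type (WT) and Sgo1-/+ mice. The 10 genes are Arc, Nr4a1, Nr4a3, Ptgs2, Plk2, Homer1, Bdnf, Nptx2, Vgf and Scg2, found by their symbols among the 38087 genes of the deposited expression data, and all 10 were among the 16337 genes with enough counts to be tested. Arc was selected on its difference between these same libraries, and the other 9 were chosen by earlier results of the same comparison, so their genotype values are given as a description with no test. Sgo1 encodes shugoshin 1, which protects the cohesion of sister chromatids at the centromere, and Sgo1-/+ mice carry 1 intact copy of it. RNA-seq was run on 3 WT and 3 Sgo1-/+ C57BL6 mice of 24 months, 1 library per mouse, from frozen cerebrum that by the study's methods held cortex and hippocampus and was to exclude the olfactory bulb, the cerebellum and the medulla. Each genotype had 1 male (replicate 1 in WT, replicate 2 in Sgo1-/+) and otherwise females. The WT libraries came from sequencing run 258 and the Sgo1-/+ libraries from run 259, so genotype and run cannot be told apart.

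Activity-induced genes are read out within the nucleus of a neuron after calcium enters through synaptic receptors and voltage-gated channels, and their promoters and enhancers are bound by CREB, SRF and MEF2. Some, the fast or primary-response genes, need no new protein to be transcribed, and many of their transcripts are short-lived. Others rise later or for longer, and their products are often secreted proteins and neuropeptide precursors that act on synapses, so that in cortex and hippocampus the whole set is known as a molecular trace of recent firing. Arc, Nr4a1, Nr4a3, Ptgs2, Plk2 and Homer1 were grouped here as the 6 fast genes, and Bdnf, Nptx2, Vgf and Scg2 as the 4 slow genes.

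The libraries held 11123917 to 12505561 estimated counts. Sgo1 itself, listed under the older symbol Sgol1, had 0, 7 and 0 estimated counts in the WT libraries and 4, 2 and 0 in the Sgo1-/+ libraries, too few to check the genotype. The labelled tissue was checked with markers. Summed normalized counts of 12 cortex and hippocampus markers were 9135 in WT replicate 1 and 54701 to 68755 in the other 5 libraries, and 11 of the 12 were lowest in WT replicate 1. The sum of 14 hindbrain and cerebellum markers was 27349 in WT replicate 1 and 620.1 to 1753 in the others, with all 14 highest in WT replicate 1, and Gabra6, Hoxb5, Hoxa5 and Barhl1 were at 0 in at least 1 library. The 8 neuronal markers summed to 80446 to 105247, with the Sgo1-/+ libraries inside the WT range. This sum hides opposite departures in WT replicate 1, where 3 of the 8 were lowest and 4 highest. Syt1 was 5380 there against 18496 to 23342 in the other 5 libraries, and Nefm 9518 against 2697 to 4612. WT replicate 1 thus stood apart from the stated dissection, and the genotype differences below are given with and without it. Leaving it out does not leave libraries of matched tissue, since olfactory bulb and glial markers, given below, also differed among the others. In whole tissue, fewer cells of a type and less RNA per cell cannot be told apart.

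The stretches below show the cAMP response element (CRE), the DNA motif that CREB binds, near the start sites of the genes, because its core was found in every gene that could be looked up. RefSeq promoter windows on GRCm38.p6, each running from 250 bases before to 50 bases after a start site, were matched for 7 of the 10 genes, 14 windows in all. Arc, Nptx2 and Vgf had no entry. The capitals mark the full CRE, TGACGTCA, in Scg2 and Plk2, and in the other genes its core, TGACG, which reads CGTCA where it lies on the opposite strand. Each line runs 5′ to 3′ on the strand of the gene.
Scg2, chr1:79440076-79440105, minus strand: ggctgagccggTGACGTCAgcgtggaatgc
Plk2, chr13:110394971-110395000, plus strand: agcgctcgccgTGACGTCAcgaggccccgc
Ptgs2, chr1:150100032-150100061, plus strand: gagtcaccactaCGTCAcgtggagtccgct
Bdnf, chr2:109692389-109692418, plus strand: tatgacagctcaCGTCAaggcagcgtggag
Nr4a3, chr4:48045146-48045175, plus strand: ctgtggcataaaTGACGtgccgagagagcg

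Nr4a1, Nr4a3 and Homer1 each held several cores in 1 window. For Nr4a1 and Homer1 the 250 bases before the start site held no annotated exon and are shown whole, with every core in capitals. For Nr4a3 the longest upstream stretch free of exons was 98 bases, and its line above shows 1 of its 4 cores.
Nr4a1, chr15:101266596-101266845, plus strand: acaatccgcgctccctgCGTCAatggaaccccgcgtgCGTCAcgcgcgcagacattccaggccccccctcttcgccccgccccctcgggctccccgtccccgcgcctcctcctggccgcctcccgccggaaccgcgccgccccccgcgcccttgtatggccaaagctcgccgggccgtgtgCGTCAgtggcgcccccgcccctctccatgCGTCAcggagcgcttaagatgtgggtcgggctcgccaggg
Homer1, chr13:93303507-93303756, plus strand: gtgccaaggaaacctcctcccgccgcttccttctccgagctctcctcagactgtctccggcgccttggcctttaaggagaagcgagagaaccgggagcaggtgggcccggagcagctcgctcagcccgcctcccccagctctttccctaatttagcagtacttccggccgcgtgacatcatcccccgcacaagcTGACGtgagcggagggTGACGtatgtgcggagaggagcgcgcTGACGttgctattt

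The full CRE began 68 bases before the RefSeq start site of Scg2 and 62 bases before that of Plk2. It was present in 2 of the 14 windows against 1.79% of the 32851 promoter windows of the genome. In the GENCODE M21 annotation Scg2 begins further upstream, at 79440120, so its CRE lies inside the annotated gene. The core printed for Nr4a3 also lies inside its annotated span, which begins at 48045153. That of Ptgs2 begins 13 bases after the start site. The core was found on either strand in at least 1 window of each of the 7 genes, against 23% of all genes with windows. By window it was in 7 of the 14, against 20.8% of all windows. A full CRE holds the core on both strands, so these 2 motifs overlap. Nr4a1 and Nr4a3 each had 4 cores and Homer1 had 3 in a single window. Of the 7 windows of Bdnf, which starts transcription from many alternative first exons, 1 held the core. The AP-1 site TGANTCA, bound by Fos and Jun proteins, occurred in 1 window, also of Bdnf (7.81% of all windows). The NBRE, AAAGGTCA, which the Nr4a receptors bind, occurred in none (1.51%), nor did the serum response element (1.63%) or the MEF2 site (0.557%), both searched on both strands by their consensus. A match is a description of these letters only, and its absence says nothing of binding outside the window.

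**Figure D1:**
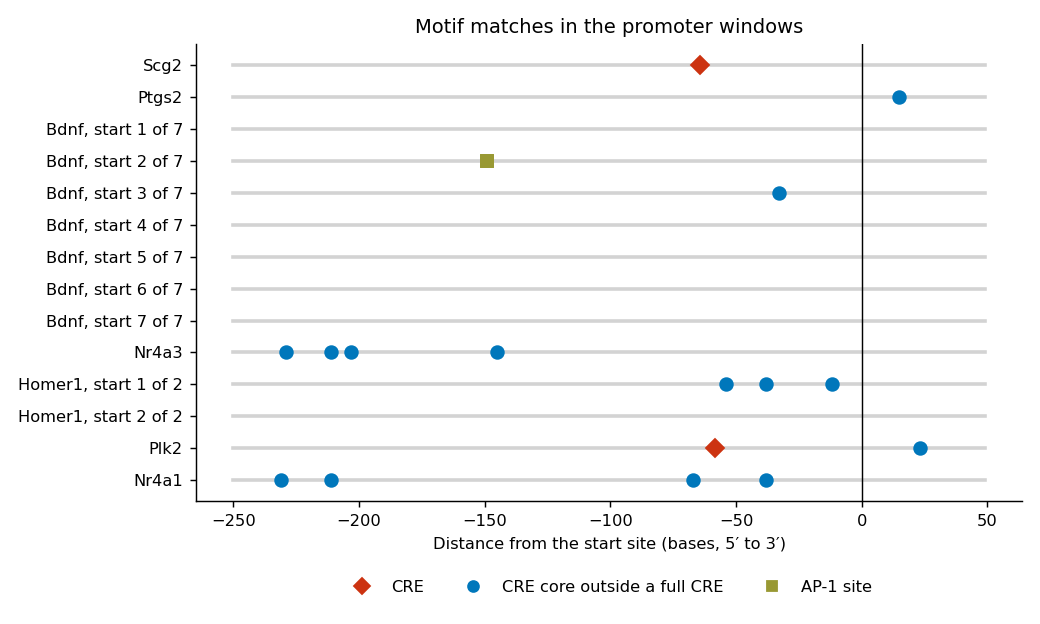
Motif matches in the 14 RefSeq promoter windows of 7 genes, with distance from the start site in bases on the horizontal axis (grey line, window from -250 to +50; diamond, full CRE; circle, CRE core outside a full CRE; square, AP-1 site). The full CREs of Scg2 and Plk2 lie 68 and 62 bases upstream of the start, and the 4 cores of Nr4a1 lie on the upstream side.

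Arc had the largest fitted difference of the 10 with all 6 libraries, though not without WT replicate 3, when Ptgs2 (1.46 on the log2 scale) and Nptx2 (1.39) exceeded its 1.35. Arc (ENSMUSG00000022602, mm10 chromosome 15, 74669083 to 74672570, minus strand) encodes a postsynaptic protein that drives internalisation of AMPA receptors. Its normalized count, the estimated count scaled to the mean library, was, in the order of replicates 1 to 3, 464, 1213 and 503 for WT and 1286, 3014 and 2113 for Sgo1-/+. Every Sgo1-/+ library lay above every WT library, although WT replicate 2 (1213) came close to Sgo1-/+ replicate 1 (1286). The group means were 727 ± 422 and 2137 ± 865 (SD, n = 3 each), a ratio of 2.94, and the fitted log2 fold change was 1.56 (SE 0.458). Without WT replicate 1 it was 1.32 (SE 0.440) and the ratio of means was 2.49. Among the 4 females it was 0.99 (SE 0.422). The fitted value ranged from 1.22 without Sgo1-/+ replicate 2 to 2.14 without WT replicate 2.

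Nr4a1 and Nr4a3 encode orphan nuclear receptors that act as transcription factors. Nr4a1 (chromosome 15, 101266846 to 101274792) followed the same order of libraries as Arc. Its normalized counts were 276, 699.9 and 278 in WT and 779, 1374 and 831 in Sgo1-/+. The groups did not overlap, and again WT replicate 2 lay nearest to the Sgo1-/+ libraries. The means were 418 ± 244 and 995 ± 329.6 (SD, n = 3 each), with a log2 fold change of 1.25 (SE 0.419) and of 1.02 (SE 0.399) without WT replicate 1. Nr4a3 (chromosome 4, 48045153 to 48086447) had normalized counts of 171, 191 and 103 in WT and 99.3, 448 and 417 in Sgo1-/+. Sgo1-/+ replicates 2 and 3 were high, but Sgo1-/+ replicate 1 was the lowest of all 6, so the groups overlapped. For Nr4a3 the log2 fold change came to 1.05 with a SE of 0.540, and to 1.12 (SE 0.595) without WT replicate 1.

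Ptgs2 (chromosome 1, 150100124 to 150108010) encodes cyclooxygenase-2, the inducible enzyme that makes prostaglandin precursors. Its normalized counts were 23.2, 152 and 172 in WT and 243, 219.9 and 263 in Sgo1-/+. The 3 Sgo1-/+ libraries were close together and all above WT, and WT replicate 1 fell far below the other WT libraries. The log2 fold change of Ptgs2 fell from 1.06 (SE 0.601) to 0.58 (SE 0.156) when WT replicate 1 was left out, and the groups still did not overlap.

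Plk2, a kinase that acts in homeostatic weakening of synapses, and Homer1, a scaffold of metabotropic glutamate receptors, both depended on WT replicate 1. Plk2 (chromosome 13, 110395044 to 110400844) had normalized counts of 502, 2105 and 2042 in WT and 2449, 2548 and 1961 in Sgo1-/+. Apart from the low value in WT replicate 1, its 5 libraries were mixed between the genotypes. The log2 fold change of Plk2 was 0.58 (SE 0.485) with all libraries and 0.16 (SE 0.130) without WT replicate 1. Homer1 (chromosome 13, 93303757 to 93404129) had normalized counts of 620.3, 1441 and 2104 in WT and 1759, 2868 and 2449 in Sgo1-/+. WT replicate 3 lay above Sgo1-/+ replicate 1, so its groups overlapped. The log2 fold change of Homer1 was 0.76 (SE 0.419), and 0.41 (SE 0.232) without WT replicate 1, while leaving out WT replicate 3 raised it to 1.20. Counts were per gene, so the short Homer1a transcript that activity induces was not separated from the constitutive long forms.

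Of the slow genes, Vgf alone had groups that did not overlap. Vgf (chromosome 5, 137030295 to 137033351) encodes a precursor of secreted neuropeptides. Its normalized counts were 1225, 1343 and 1768 in WT and 1863, 2490 and 2152 in Sgo1-/+. All Sgo1-/+ libraries were higher, by a narrow margin between Sgo1-/+ replicate 1 and WT replicate 3. The means were 1445 ± 286 and 2168 ± 314 (SD, n = 3 each), and the log2 fold change was 0.59 (SE 0.178), or 0.48 (SE 0.164) without WT replicate 1.

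Bdnf (chromosome 2, 109674700 to 109727007) encodes brain-derived neurotrophic factor, which acts on the receptor TrkB. Its normalized counts were 209, 141 and 258 in WT and 179, 292 and 383 in Sgo1-/+. Sgo1-/+ replicate 1 lay inside the WT range. The log2 fold change of Bdnf was 0.49 (SE 0.326), and 0.51 (SE 0.357) without WT replicate 1. It ranged from 0.22 without Sgo1-/+ replicate 3 and 0.28 without WT replicate 2 to 0.74 without Sgo1-/+ replicate 1. Nptx2 (chromosome 5, 144545887 to 144557478) encodes a secreted pentraxin that gathers AMPA receptors at excitatory synapses. Its normalized counts were 115, 282 and 538 in WT and 349, 629 and 583 in Sgo1-/+. WT replicate 3 exceeded Sgo1-/+ replicate 1, and the log2 fold change of Nptx2 went from 0.74 (SE 0.516) to 0.35 (SE 0.325) without WT replicate 1 and to 1.39 without WT replicate 3.

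Scg2 was the exception to the direction of the other 9. Scg2 (chromosome 1, 79434669 to 79440090, minus strand) encodes secretogranin II, a granin of dense-core vesicles and the precursor of secretoneurin. Its normalized counts were 4265, 4470 and 4572 in WT and 4944, 5045 and 3007 in Sgo1-/+. The WT libraries, replicate 1 included, lay within a narrow band, and the Sgo1-/+ libraries lay on both sides of it. The log2 fold change of Scg2 was -0.03 (SE 0.207). It was 0.17 without Sgo1-/+ replicate 3, the library with the lowest value.

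**Figure D2:**
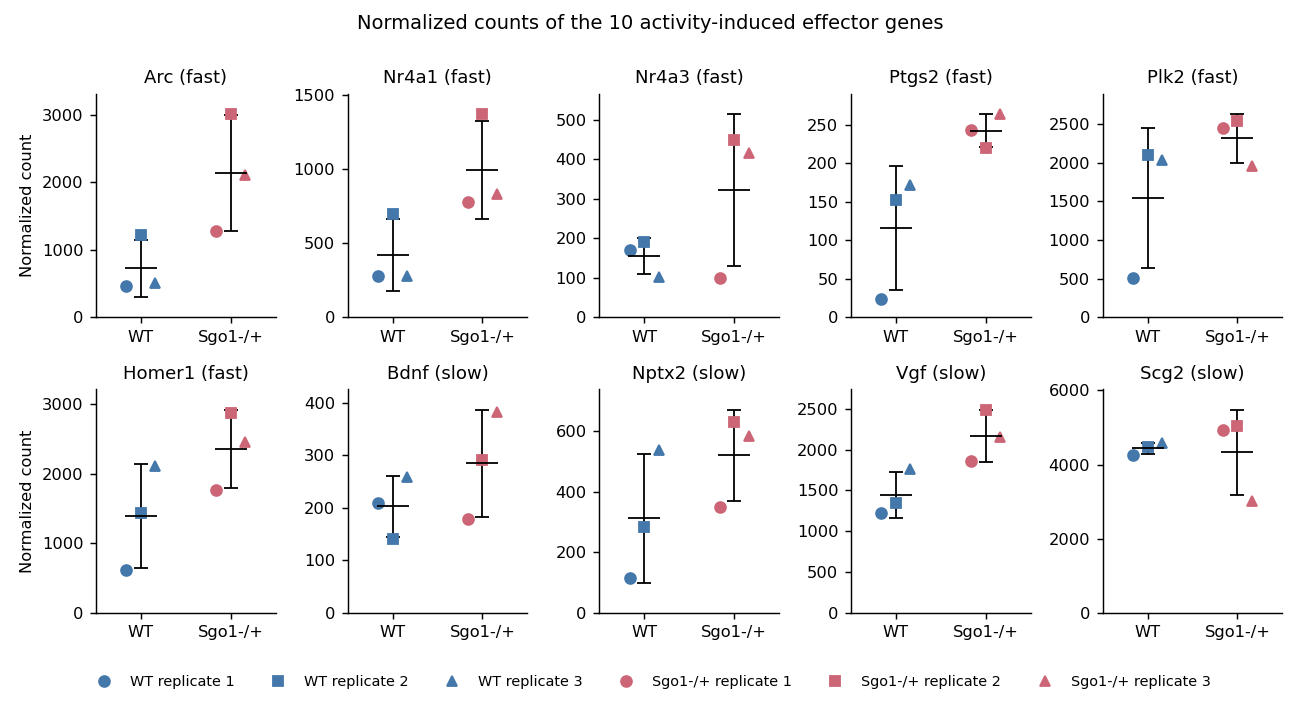
Normalized counts (vertical axes, each from 0) of the 10 genes in the 3 WT (blue) and 3 Sgo1-/+ (red) libraries, with the marker shape giving the replicate and the black bars the mean and SD. The groups do not overlap for Arc, Nr4a1, Ptgs2 and Vgf, and WT replicate 1 (blue circle) is the lowest point in 7 of the 10 panels.

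The extremes fell in a few libraries. Sgo1-/+ replicate 2 held the highest value of 8 of the 10 genes, all but Ptgs2 and Bdnf, which were highest in Sgo1-/+ replicate 3. WT replicate 1 held the lowest value of 7 genes, namely Arc, Nr4a1, Ptgs2, Plk2, Homer1, Nptx2 and Vgf. Both of these libraries came from males. In all, 4 of the 10 genes had Sgo1-/+ values wholly above WT and none wholly below. Over all genes tested, 3.24% lay wholly above and 3.57% wholly below. Without WT replicate 1 the number was also 4, when 8.72% of all genes lay wholly above. The median log2 fold change of the 10 genes was 0.75, with 9 of 10 above 0. That of all 16337 genes was -0.00, with 8138 above 0. Without WT replicate 1 the median of the 10 was 0.50, and among the females it was 0.44. Since the 10 were chosen with this contrast known, nothing is read from these counts.

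**Figure D3:**
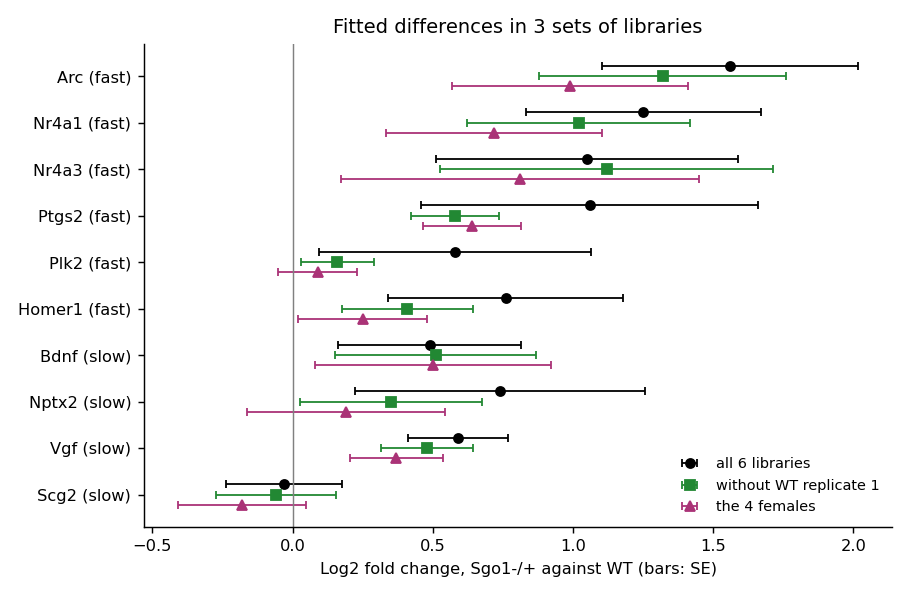
Fitted log2 fold change of each gene, Sgo1-/+ against WT (horizontal axis; bars, SE), with all 6 libraries (circles), without WT replicate 1 (squares) and in the 4 females (triangles). Arc goes from 1.56 to 1.32 and 0.99, Plk2 from 0.58 to 0.16 and 0.09, and Scg2 stays on the negative side at -0.03, -0.06 and -0.18.

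The fast and slow genes were then compared library by library, since the 2 classes report on different times after activity. For each library, the log2 deviation of each gene from its own mean over the 6 libraries was averaged over the class. In WT replicate 1 the fast genes stood at -1.41 and the slow genes at -0.58, a difference of -0.83. In WT replicate 2 the fast genes stood at 0.06 and the slow at -0.35, a difference of 0.41, and in WT replicate 3 at -0.40 and 0.21, a difference of -0.61. The WT libraries thus did not share a sign. In Sgo1-/+ replicates 1, 2 and 3 the fast genes stood at 0.14, 0.95 and 0.67 and the slow genes at -0.03, 0.47 and 0.30. The fast genes lay above the slow genes in all 3, by 0.18, 0.48 and 0.37.

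As group means, the difference between fast and slow genes was -0.34 ± 0.66 in WT and 0.34 ± 0.15 in Sgo1-/+ (SD, n = 3 each), with the larger SD in WT. Sgo1-/+ exceeded WT by 0.68, and by 0.44 without WT replicate 1. WT replicate 2 lay inside the Sgo1-/+ range, so the groups overlapped on this measure. The fast genes differed between the genotypes by 1.17 and the slow genes by 0.49 (0.76 and 0.32 without WT replicate 1). The median fitted log2 fold change was 1.05 for the fast genes (0.80 without WT replicate 1) and 0.54 for the slow genes (0.41). Within the fast class the fitted values ran from 0.58 for Plk2 to 1.56 for Arc, and within the slow class from -0.03 for Scg2 to 0.74 for Nptx2, so the classes overlapped.

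**Figure D4:**
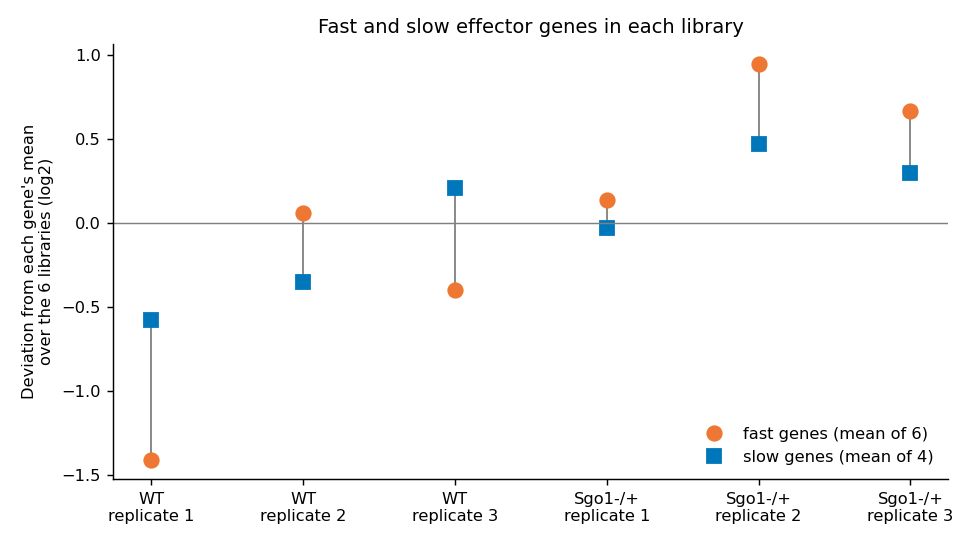
Mean log2 deviation from each gene's mean over the 6 libraries (vertical axis) of the 6 fast (circles) and 4 slow (squares) genes in each library. The fast genes lie above the slow genes in WT replicate 2 and in all 3 Sgo1-/+ libraries, and below them by 0.83 in WT replicate 1 and by 0.61 in WT replicate 3.

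Neurons of cortex and hippocampus are a main source of these transcripts, and markers of those regions were low in WT replicate 1. The genes were therefore also given per 1000 summed counts of the 12 cortex and hippocampus markers, a scaling chosen after the values were seen. Camk2a alone made up most of that sum outside WT replicate 1 (29744 to 37030 counts), and 3573 of 9135 in WT replicate 1. The scaled values thus rest largely on 1 gene. On this scale WT replicate 1 held the highest value of 8 of the 10 genes, against the lowest of 7 on normalized counts. Arc stood at 50.8, 22.2 and 7.40 in WT and at 20.4, 52.4 and 30.7 in Sgo1-/+. The 2 groups of Arc overlapped, with a log2 difference of 0.66, and they overlapped also without WT replicate 1, when the difference was 1.32. Ptgs2 stood at 2.54, 2.79 and 2.53 in WT and at 3.86, 3.82 and 3.82 in Sgo1-/+. Ptgs2 was the only one of the 10 whose groups did not overlap, and WT replicate 1 fell within its WT band. The share over all genes was not computed on this scale, so nothing is read from that count.

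Nr4a1 stood at 30.2, 12.8 and 4.09 in WT and at 12.3, 23.9 and 12.1 in Sgo1-/+ per 1000 marker counts, and Vgf at 134, 24.5 and 26.0 in WT and at 29.5, 43.3 and 31.3 in Sgo1-/+. Both overlapped, and Vgf did not once WT replicate 1 was left out. Scg2 reached 467 in WT replicate 1, while its other 5 values ran from 43.7 to 87.7. The median log2 difference of the 10 genes was -0.09 on this scale and 0.45 without WT replicate 1. Summed counts of 8 olfactory bulb markers were 2616 to 3528 in WT and 402 to 1786 in Sgo1-/+. Calb2 made up most of the sum in WT replicate 1 (2346). The other 7 markers summed to 315, 2300 and 1882 in WT and to 1077, 246 and 166 in Sgo1-/+. On these 7 the groups overlapped only through WT replicate 1. Each of the markers, Calb2 included, was higher in WT replicates 2 and 3 than in any Sgo1-/+ library. Olfactory bulb signal thus followed genotype once WT replicate 1 was left out. Summed counts of 10 glial markers were highest in WT replicate 1 (130907) and Sgo1-/+ replicate 3 (113802), against 53973 to 70771 in the other 4. The part of tissue content in the differences of the 10 genes was not tested beyond this scaling.

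**Figure D5:**
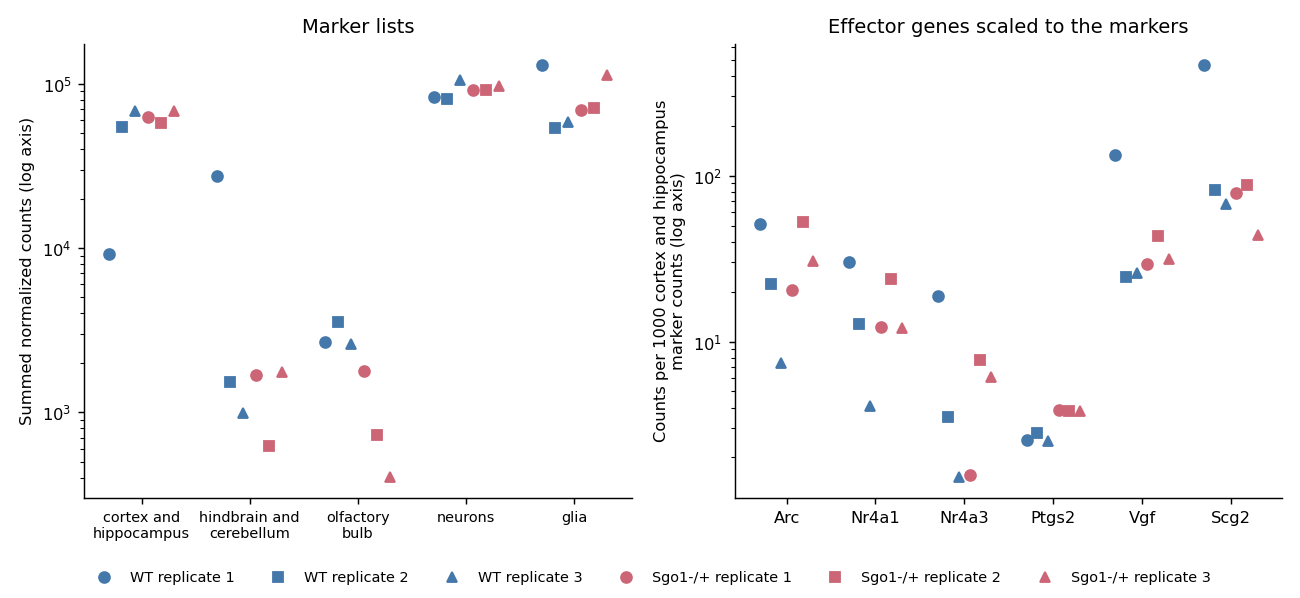
Left, summed normalized counts of 5 marker lists in each library (log axis; blue, WT; red, Sgo1-/+; shape, replicate). Right, counts of 6 of the 10 genes per 1000 summed cortex and hippocampus marker counts (log axis), where WT replicate 1 (blue circle) is high for all but Ptgs2, whose 3 Sgo1-/+ libraries (3.82 to 3.86) lie above the 3 WT libraries (2.53 to 2.79).

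The order of the 10 genes by level was taken per kb of annotated exon. In WT, Scg2 was the highest at 1764 ± 62.2 normalized counts per kb (SD, n = 3) and did not overlap the next gene, Vgf, at 486 ± 96.2. Plk2 (345 ± 202 per kb), Arc (238 ± 138), Nptx2 (123 ± 84.0), Nr4a1 (119 ± 69.6) and Homer1 (116 ± 62.1) followed, each overlapping its neighbour in the order. Bdnf (32.6 ± 9.44 per kb), Nr4a3 (25.9 ± 7.69) and Ptgs2 (25.3 ± 17.7) formed the lowest group and overlapped each other. In Sgo1-/+, Scg2 (1722 ± 457 per kb) and Vgf (729 ± 106) kept the first places and Arc (699 ± 283) came next, above Plk2 (516 ± 69.9). Arc overlapped both of these neighbours in level. At the low end, Nr4a3 (53.7 ± 32.2 per kb), Ptgs2 (52.9 ± 4.71) and Bdnf (45.7 ± 16.4) overlapped again. Lengths are of all annotated exons together, so a gene with long exons that few transcripts use is placed low on this scale. Without WT replicate 1, the first 5 places in WT were the same, Plk2 (455 to 469 per kb) no longer overlapped Arc (165 to 397), Homer1 (mean 148) came before Nr4a1 (139), and Ptgs2 (35.5) came before Bdnf (32.1) and Nr4a3 (24.6).

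The genes whose pattern over the 6 libraries was most like that of Arc were sought among 11286 genes with a mean normalized count of at least 100. Nr4a1 had a Pearson r of 0.98 and a Spearman rho of 1.00 with Arc, and none of the genes outside the 10 had a higher r. The 5 closest of those were Wdr46 (r 0.98), Cactin (0.97), Thnsl1 (0.97), Ier5l (0.96) and Psmd3 (0.96). Their values spanned narrower ranges than those of Arc. Psmd3, a proteasome subunit gene, ran from 1225 to 1354 normalized counts, and Ier5l, an immediate early response family gene, from 64.5 to 211. The other 8 genes of the set had an r with Arc between -0.13 for Scg2 and 0.76 for Vgf. The 6 libraries share their group difference, so these values describe an order of libraries and carry no p-value. They were not computed without WT replicate 1, which would leave 5 libraries.

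Other genes of the activity response were taken from lists by role. The lists were drawn up with earlier results of these data known. Their counts and p-values are therefore a description and no independent test. No gene in the genome passed an adjusted p of 0.05 by edgeR's quasi-likelihood test (0% of 16337), while 132 higher (0.808%) and 201 lower (1.23%) had an unadjusted p under that threshold, and DESeq2 called 3 genes, the edgeR likelihood ratio test 2 and limma 0. P-values here set the difference between the groups against the spread among mice within them. That difference includes the sequencing run, and the spread within WT includes WT replicate 1. Of 11 activity-induced transcription factor genes, all had a positive log2 fold change, against 8138 of all 16337 genes. The median of the 11 was 1.01 (0.61 without WT replicate 1), and 1 passed the unadjusted threshold. That was Egr1, a zinc finger factor, with 707, 1697 and 1248 normalized counts in WT and 1904, 3983 and 3745 in Sgo1-/+. The fitted log2 fold change of Egr1 reached 1.40 (SE 0.387, unadjusted p = 0.00883, adjusted p = 0.9999, edgeR), and 1.12 (SE 0.313) without WT replicate 1. Egr1, Fos, Fosb and Ier2 lay wholly higher in Sgo1-/+, 4 of the 11, against 3.24% of all genes tested. The number was also 4 without WT replicate 1, against 8.72%. Fos, Fosb and Ier2 did not pass the unadjusted threshold and were picked out after their values were known. Of the list, 9 of the 11 factors were highest in Sgo1-/+ replicate 2 and 8 lowest in WT replicate 1.

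Of 22 further activity-induced effector genes, 16 had a positive log2 fold change, against 8138 of all 16337 genes. The median of the 22 was 0.24 (0.12 without WT replicate 1). As higher, 1 passed the unadjusted threshold, against 0.808% of all genes. That gene was Trib1, a pseudokinase that recruits a ubiquitin ligase, with 159, 154 and 151 normalized counts in WT and 269, 211 and 219 in Sgo1-/+. WT replicate 1 did not stand apart for Trib1. The fitted log2 fold change of Trib1 reached 0.59 (SE 0.149, unadjusted p = 0.00561, adjusted p = 0.9999, edgeR), and 0.61 without WT replicate 1. Without that library the threshold was passed by 2 of the 22, Trib1 and Plk3, when 1.86% of all genes passed in that direction. Plk3 was named for that call, after its values were known. Nearest to 0 of the list were Inhba, which encodes an activin subunit, at 0.01 (SE 0.452), Ppp1r15a, which encodes a regulatory subunit of a phosphatase, at -0.04 (SE 0.246), and Rheb, which encodes the GTPase upstream of mTOR, at -0.04 (SE 0.0949). Without WT replicate 1 they stood at -0.25, -0.03 and -0.02. The choice of these 3 was made with their values in view. Groups did not overlap, as higher, for 1 of the 22 genes, against 3.24% of all genes tested. Without WT replicate 1 this held for 2 of the 22, against 8.72%, so both counts were near the share over all genes.

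The receptors, paralogs and partners of the 10 genes formed a list of 33. None passed the unadjusted threshold by edgeR's quasi-likelihood test, and none passed the adjusted one. The median log2 fold change of the list was 0.12 (0.04 without WT replicate 1). Of the 33, 22 were above 0, against 8138 of all 16337 genes. Ptger1, a prostaglandin E2 receptor gene, the granin gene Chgb and the endophilin gene Sh3gl3 lay wholly higher in Sgo1-/+, and Ptger2 wholly lower, at only 4.09 to 16.1 normalized counts. Over all genes tested, 3.24% lay wholly higher and 3.57% wholly lower. Without WT replicate 1, 4 of the 33 lay wholly higher, against 8.72% of all genes. Beside Bdnf, its receptor gene Ntrk2 showed 0.15 on the log2 scale (SE 0.188), or -0.02 without WT replicate 1, and beside Nptx2, the receptor gene Nptxr had 0.35 (SE 0.445), or -0.04 without WT replicate 1. Beside Homer1, the paralog Homer2 stood at -0.09 (SE 0.395), and without WT replicate 1 at -0.45 (SE 0.144), when it was the 1 gene of the list past the unadjusted threshold, as lower, against 1.91% of all genes. Beside Ptgs2, the constitutive cyclooxygenase gene Ptgs1 stood at 0.08 (SE 0.175), or -0.01 without WT replicate 1, with 180.3, 185 and 255 normalized counts in WT and 232, 205 and 218 in Sgo1-/+. Beside Scg2, the granin genes Chga and Scg3 stood at -0.07 (SE 0.237) and -0.12 (SE 0.159), and both turned positive without WT replicate 1, at 0.22 (SE 0.144) and 0.04 (SE 0.111). Ptger1, Chgb, Sh3gl3, Ptger2 and Homer2 were named after their values were known, and the others for their tie to one of the 10.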

How the data were processed

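RNA-seq libraries came from the cerebrum of 3 WT and 3 Sgo1-/+ mice. The authors aligned paired reads to mm10 in Strand NGS and deposited estimated counts per Ensembl gene without normalization. The Ensembl release and whether the counting used the strand are not given in the sources used here. Of the values, 47.4 to 48.6% per library were not whole, and counts were rounded. The deposited normalized columns and the authors' fold changes, ratios and scores were not used. Columns were tied to samples by the numbers in their names.

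Counts were fitted with edgeR 4.0.16 in R 4.3.3 (quasi-likelihood test, TMM normalization, default filter with a minimum count of 10, no covariate, 16337 genes) with Benjamini-Hochberg adjustment. A SE is the size of the log2 fold change divided by the square root of F. Deviations used log2(normalized count + 0.5). Alternatives used DESeq2 1.42.0, limma 3.58.1, other filters and scalings, sex, a replicate block and each library left out. Exon lengths came from GENCODE M21 and promoters from RefSeq, on the same build. In that annotation Homer1 overlaps Gm47088 and Gm47075, and Bdnf overlaps Gm45346 on the opposite strand.

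The 10 genes, the lists and the markers were chosen with earlier results of these data known. The text names the 10, list genes past an unadjusted p of 0.05 whose groups do not overlap, Sgo1, the 5 genes most like Arc, and markers. Names outside this rule are marked in the text. An estimated count of 0 allows up to 3 counts, and this limit covers counting error only.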

Additional observations from a re-analysis of the deposited data

How the results depend on the processing

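With 3 libraries a group, these values carry wide errors, and low counts limit Sgo1, Ptger2 and several hindbrain markers. WT replicate 1 stood apart in its cortex, hippocampus and hindbrain markers, and the other libraries differed among themselves in olfactory bulb and glial markers. Of the differences under 18 alternatives, Arc, Nr4a1 and Ptgs2 were above 0 in all 18 (Arc 0.66 to 2.14), Scg2 in 1 and the other 6 in 17. The exception for those 6 was the scaling to cortex and hippocampus markers, chosen after seeing the data, where Nptx2 stood at 0.00 and the median of the 10 genes was -0.09 instead of 0.75. That scaling left 1 gene with groups that did not overlap, and 2 without WT replicate 1. The share over all genes was not computed on that scale, so these counts are not read. Genes past an adjusted p of 0.05 numbered 3 with DESeq2, 2 with the likelihood ratio test and 1 in females, against 0. Factor genes past the unadjusted threshold numbered 2 with no filter, 4 with DESeq2 and 2 with the likelihood ratio test, against 1, and partner genes 1 with limma, against 0. Over all genes, those past it were 196 higher and 367 lower of 26061 with no filter. Of 16337 genes they were 132 and 236 with DESeq2, 128 and 251 with the likelihood ratio test, and 180 and 242 with limma. With a replicate block, 6 factors, 2 other effectors and 1 partner passed the unadjusted threshold. Of all 16337 genes, 125 then passed it as higher and 155 as lower, and 0 passed the adjusted threshold. The median of the 10 genes with the block was 0.88. Same-numbered libraries were not alike in their deviations (correlations of -0.14, 0.17 and -0.22), and no library correlated best with its own number. These correlations cannot show whether the mice were paired. With each library left out in turn, genes past the adjusted threshold ranged from 0 to 1, non-overlapping genes of the 10 from 4 to 8 (8 without Sgo1-/+ replicate 1), their median from 0.50 to 0.95, the fast minus slow difference from 0.44 to 1.06, factors from 1 to 5, other effectors from 1 to 4 and partners from 0 to 1. The background over all genes moved as well. Genes wholly higher made up 3.24% with all libraries and 8.72% without WT replicate 1. That share is not given for the other libraries left out, so the 8 is not read. Genes past the unadjusted threshold were 132 higher and 201 lower with all libraries, and 528 and 512 without WT replicate 3. The 5 factors and 4 other effectors were seen without WT replicate 2, when 145 genes were higher and 242 lower. The cause of these changes was not tested.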
